A study of Homo sapiens with 8 samples.

Results

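The genes described here encode steps of the RAS, RAF, MEK and ERK cascade, and they were chosen by name: 7 of the 38148 genes in the HT29 expression table, namely the RAS GTPases HRAS and NRAS, the RAF kinases ARAF and BRAF, the MEK kinases MAP2K1 and MAP2K2, and the ERK kinase MAPK3. Other genes of the cascade are not analysed here. HT29 is an established human colorectal cancer cell line with an activating BRAF mutation, and it was left untreated or given selumetinib, a MEK inhibitor, at 1 μM for 24 h. The cells were then sorted into a CCNB1-negative and a CCNB1-positive fraction, which makes 4 groups of 2 libraries. In all 4 groups the cells had been glyoxal-fixed and permeabilized before an antibody stain for the CCNB1 product cyclin B1, a G2 protein, on which flow cytometry gates were set, so that each fraction is a gated part of cultures of 1 cell line. The comparisons ask how mRNA of the drug's own pathway differs under the drug, and whether cells in G2 under the drug differ from the others.

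The labels of the libraries contradict each other. For all 8, title and short description disagree on the treatment and also on the fraction, and the groups here follow the descriptions, which are also the column names of the table. If the titles were right, each drug response below would belong to the other fraction and each difference between fractions to the other treatment, all with the opposite sign, and only the difference between the responses would stay. CCNB1 mRNA, the check on the sort, had log2 values (reads on a log2 scale, after scaling all libraries to the depth of the deepest) of 11.66 and 12.01 in untreated CCNB1-negative, 13.79 and 14.05 in untreated CCNB1-positive, 7.92 and 7.22 in treated CCNB1-negative and 12.76 and 12.53 in treated CCNB1-positive libraries. It was thus higher in the fraction called positive by the descriptions under each treatment, and lower in treated than in untreated libraries of each fraction. By the titles, the fraction called positive would have the lower CCNB1 values under each treatment.

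RAS proteins are membrane-bound switches that are active while they hold GTP. Active RAS recruits RAF kinases, RAF phosphorylates the MEK kinases, and MEK phosphorylates ERK, which acts on cytoplasmic kinases and on transcription factors such as those of the ETS family. The pathway drives proliferation of colorectal cancer cells, and ERK also feeds back on its own upstream steps. A MEK inhibitor acts on the kinase proteins, whereas the values here are mRNA only.

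Windows around a RefSeq start site are shown for the 4 genes whose mRNA differed in the same direction in both fractions. HRAS and NRAS fell together and BRAF and MAPK3 rose together under the drug. Each window runs from 250 bases before to 50 bases after the RefSeq start site on GRCh38.p14, on the minus strand: chr11:535527-535826 for HRAS, chr1:114716722-114717021 for NRAS, chr7:140924219-140924518 for BRAF and chr16:30123171-30123470 for MAPK3. On this strand the annotated genes begin at 537287 (HRAS), 140924928 (BRAF) and 30123506 (MAPK3), so these windows lie inside the annotated gene. Sequence before that outermost start was not searched for them. Capitals mark the ETS core, CCGGAA or TTCCGG on the other strand.
HRAS: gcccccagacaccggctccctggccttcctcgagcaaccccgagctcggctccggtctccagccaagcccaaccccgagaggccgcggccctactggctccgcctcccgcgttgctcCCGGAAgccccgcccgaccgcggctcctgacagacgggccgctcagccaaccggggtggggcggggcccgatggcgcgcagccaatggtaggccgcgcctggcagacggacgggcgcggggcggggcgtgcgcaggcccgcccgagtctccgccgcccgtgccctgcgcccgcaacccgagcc
NRAS: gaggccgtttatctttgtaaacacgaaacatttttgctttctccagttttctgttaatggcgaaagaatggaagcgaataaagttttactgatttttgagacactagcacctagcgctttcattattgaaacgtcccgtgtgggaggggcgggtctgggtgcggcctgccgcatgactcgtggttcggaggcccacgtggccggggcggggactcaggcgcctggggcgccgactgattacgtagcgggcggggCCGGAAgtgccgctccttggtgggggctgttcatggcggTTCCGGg
BRAF: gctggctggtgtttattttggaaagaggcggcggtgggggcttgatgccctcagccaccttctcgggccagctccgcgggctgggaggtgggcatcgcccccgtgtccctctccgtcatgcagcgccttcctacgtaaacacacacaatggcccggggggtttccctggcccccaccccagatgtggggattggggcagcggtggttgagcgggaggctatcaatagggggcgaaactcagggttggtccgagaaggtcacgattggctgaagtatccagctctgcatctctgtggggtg
MAPK3: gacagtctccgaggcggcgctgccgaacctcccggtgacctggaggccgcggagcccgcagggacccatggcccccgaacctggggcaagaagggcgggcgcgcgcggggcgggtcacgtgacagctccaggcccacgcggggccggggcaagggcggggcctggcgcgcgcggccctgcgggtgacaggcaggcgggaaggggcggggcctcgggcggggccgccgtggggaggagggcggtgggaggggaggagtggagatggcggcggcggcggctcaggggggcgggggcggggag
The ETS core was found 1 time in the HRAS window and 2 times in the NRAS window, on both strands of the latter, and its letters were not in the BRAF and MAPK3 windows. The match was not confined to genes that fell: the window of ARAF, which was called higher in CCNB1-negative cells, also held it 1 time, while those of MAP2K1 and MAP2K2 held it 0 times. Of 34796 RefSeq promoter windows of this length, 17.2% held it. The GC box, GGGCGG or CCGCCC on the other strand, was counted 5 times in HRAS, 3 times in NRAS and 8 times in MAPK3, and its letters were not in the BRAF window, against 44.9% of all windows with at least 1. No ETS core shared a base with a GC box in these windows. The GC content was 78.0% in HRAS, 57.3% in NRAS, 63.0% in BRAF and 80.7% in MAPK3, with a median of 58.7% over all windows. The 2 genes that rose thus had windows at opposite ends of the GC box count, both inside the annotated gene. Matches of letters say nothing on binding.

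The libraries held between 12696860 and 23916160 reads on genes, with the shallowest among treated CCNB1-negative cells. Several values of the whole series moved with the drug: MALAT1, a nuclear RNA, took 0.30 to 0.39% of reads in untreated and 2.01 to 4.42% in treated libraries, mitochondrial genes took 4.44 to 7.80% and 11.92 to 14.79%, and genes spanning over 200 kb took 3.77 to 4.27% and 7.29 to 12.70%. Of the colon epithelial markers, EPCAM, KRT8, KRT18, KRT20, CDH1 and VIL1 were at 107 RPM (reads divided by library depth) or more in every library, while CDX1 had 0.63 to 2.43 and CDX2 2.09 to 6.81 RPM. The 8 summed to 9932 to 11017 RPM in untreated and 4580 to 8250 RPM in treated libraries. KRT8 (1965 to 5592 RPM) and KRT18 (1670 to 4107 RPM) made up most of that sum. By gene the 8 were split under the drug: 2 were called higher and 3 lower in CCNB1-negative cells, and 3 higher and 1 lower in CCNB1-positive cells. The 6 markers of blood, fibroblasts and endothelium summed to 1.20 to 2.04 RPM in untreated and 2.91 to 5.91 RPM in treated libraries. CD3E and COL3A1 had no more than 1 read in any library, whereas COL1A1 had 6 to 107 reads (0.31 to 5.36 RPM). Of the 6, 1 averaged at least 1 RPM and was tested. That marker was called higher under the drug in each fraction, by 1.81 (negative) and 2.19 (positive) on the log2 scale. The part of these shifts in the results below was not tested.

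All 7 cascade genes had reads in every library, from 215 reads (NRAS) to 4785 reads (HRAS), and all passed the filter of a mean of at least 1 RPM, which left 14219 genes. Counting error alone at the lowest count is 6.8% for NRAS and 6.2% for MAPK3 (261 reads). Compared per length of the canonical transcript, HRAS mRNA was the most abundant in untreated CCNB1-negative cells, at 166 ± 0.947 RPKM (SD, n = 2; reads on genes scaled to transcript length and library size), followed by MAP2K2 with 57.8 ± 3.79, MAP2K1 with 47.2 ± 0.759, ARAF with 17.8 ± 1.58, NRAS with 12.5 ± 2.38, MAPK3 with 8.14 ± 0.706 and BRAF with 5.60 ± 1.34 RPKM. Each neighbour in this order differed by more than the sum of both SDs. Untreated CCNB1-positive cells had the same order, from HRAS with 184 ± 4.63 over MAP2K2 with 61.5 ± 0.373, MAP2K1 with 40.7 ± 1.45, ARAF with 21.4 ± 0.180, NRAS with 13.7 ± 0.914 and MAPK3 with 7.80 ± 0.245 to BRAF with 5.52 ± 0.267 RPKM. BRAF thus stood last in both untreated groups. Under selumetinib the order changed. Treated CCNB1-negative cells had 74.7 ± 2.32 for HRAS, 57.3 ± 3.51 for MAP2K2, 45.5 ± 7.48 for MAP2K1, 27.4 ± 7.72 for BRAF, 25.9 ± 1.62 for ARAF, 15.0 ± 4.90 for MAPK3 and 4.78 ± 1.23 RPKM for NRAS, where BRAF and ARAF differed by less than the SD of BRAF. Treated CCNB1-positive cells had 114 ± 18.6 for HRAS, 59.0 ± 1.30 for MAP2K2, 38.9 ± 4.35 for MAP2K1, 24.8 ± 0.478 for ARAF, 17.9 ± 1.09 for MAPK3, 16.3 ± 2.08 for BRAF and 7.74 ± 1.05 RPKM for NRAS, where MAPK3 and BRAF differed by less than the SD of BRAF. On this length NRAS stood last in both treated groups. The order depends on the length used. With the length of all annotated exons of a gene, untreated CCNB1-negative MAP2K1 (18.6 RPKM) stands above MAP2K2 (12.9 RPKM), whereas HRAS stays first (73.3 RPKM) and BRAF last (1.54 RPKM). On the same length NRAS is last in treated CCNB1-negative cells (4.78 RPKM), but in treated CCNB1-positive cells BRAF is last (4.50 RPKM), below NRAS (7.74 RPKM).

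**Figure D1:**
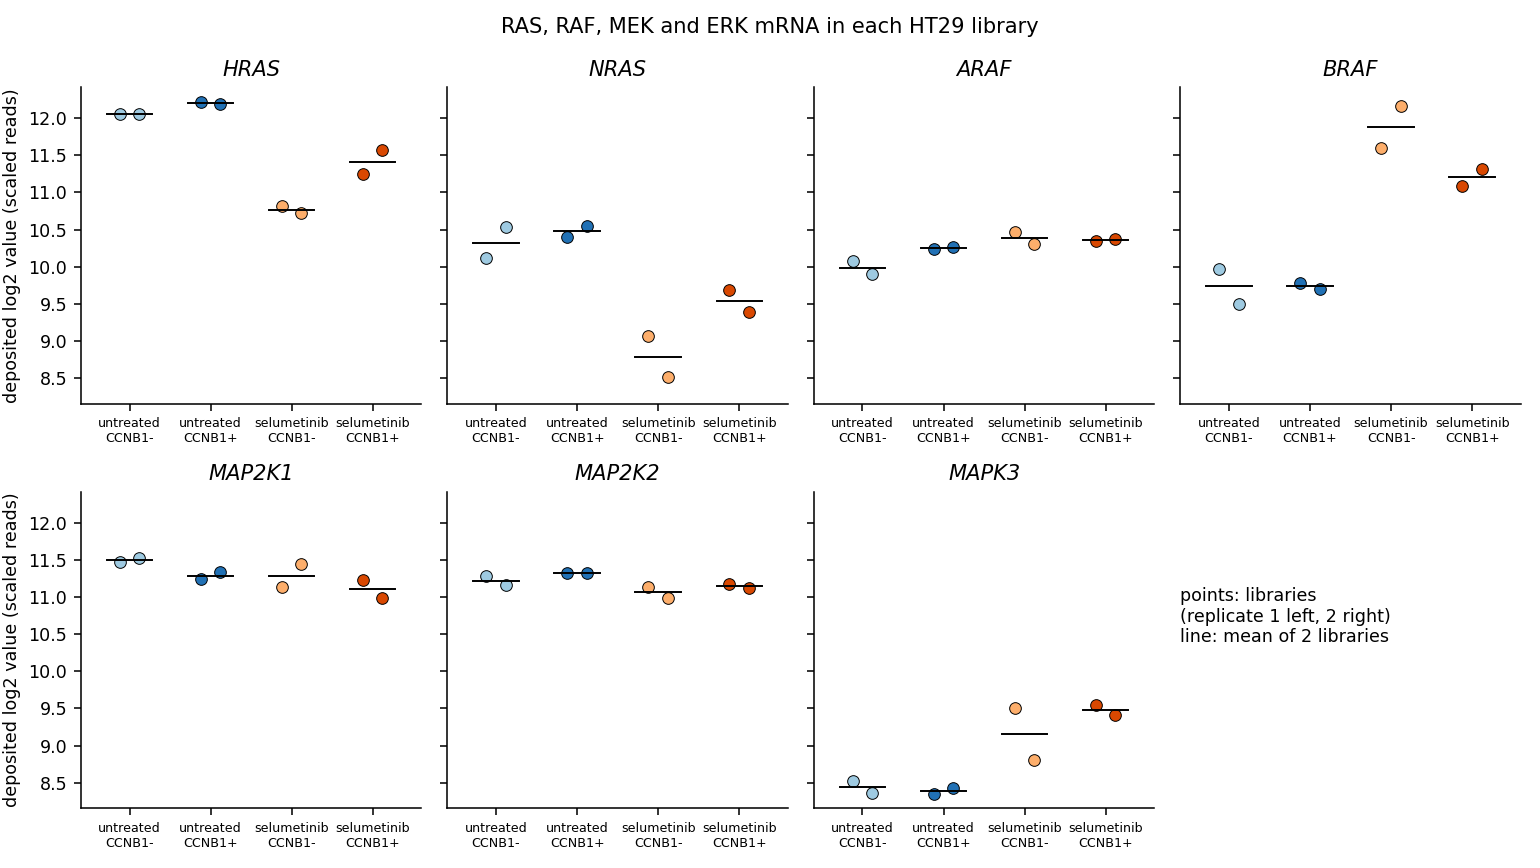
Deposited log2 value (vertical axis; reads scaled to the largest library) of each cascade gene in each of the 8 libraries, by group along the horizontal axis, with lines at the group means. HRAS and NRAS lie lower and BRAF and MAPK3 higher in all 4 treated than in all 4 untreated libraries, while MAP2K1 and MAP2K2 overlap.

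In selumetinib-treated cells the RAS genes were lower and BRAF and MAPK3 higher, in both fractions. In CCNB1-negative cells 5 of the 7 genes passed the test (limma, adjusted p under 0.05 over all genes), ARAF, BRAF and MAPK3 upwards and HRAS and NRAS downwards, where 74.1% of all genes tested passed it, 38.2% upwards and 35.8% downwards. In CCNB1-positive cells 4 of 7 passed, BRAF and MAPK3 upwards and HRAS and NRAS downwards, against 65.3% of all genes, 38.0% upwards and 27.3% downwards. The share of cascade genes called was therefore close to that of all genes in each fraction, and the results lie in which genes moved and by how much. The median over the 7 genes was -0.15 on the log2 scale for the negative and -0.17 for the positive fraction, beside 0.05 and 0.17 over all genes tested. In these bulk samples fewer cells with a transcript and less transcript per cell cannot be told apart.

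HRAS (ENSG00000174775, GRCh38 chromosome 11, 532242 to 537287, minus strand) encodes a RAS GTPase. Its log2 value was 12.06 and 12.06 in untreated CCNB1-negative, 12.22 and 12.19 in untreated CCNB1-positive, 10.81 and 10.72 in treated CCNB1-negative and 11.25 and 11.57 in treated CCNB1-positive libraries. All 4 treated libraries were below all 4 untreated ones, as for 31.4% of all genes tested, and the treated CCNB1-negative pair was lowest. The log2 difference was -1.29 ± 0.15 (SE; 2.45-fold lower; limma adjusted p = 2.69e-06) in CCNB1-negative and -0.80 ± 0.15 (1.74-fold lower; adjusted p = 0.000337) in CCNB1-positive cells.

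NRAS (ENSG00000213281, chromosome 1, 114704469 to 114716771, minus strand), its paralog, had log2 values of 10.12 and 10.53 in untreated CCNB1-negative, 10.40 and 10.55 in untreated CCNB1-positive, 9.07 and 8.51 in treated CCNB1-negative and 9.69 and 9.39 in treated CCNB1-positive libraries. The treated and untreated libraries again did not overlap. NRAS was 2.90-fold lower in CCNB1-negative cells (log2 difference -1.54 ± 0.20, limma adjusted p = 1.08e-05) and 1.91-fold lower in CCNB1-positive cells (-0.93 ± 0.20, adjusted p = 0.00115).

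The RAF genes behaved differently from each other. BRAF (ENSG00000157764, chromosome 7, 140719327 to 140924928, minus strand), the RAF kinase that is mutated in this line, had log2 values of 9.97 and 9.50 in untreated CCNB1-negative, 9.78 and 9.70 in untreated CCNB1-positive, 11.60 and 12.16 in treated CCNB1-negative and 11.08 and 11.32 in treated CCNB1-positive libraries. The treated libraries stood above the untreated ones without overlap, as for 38.3% of all genes tested, with the treated CCNB1-negative pair highest. BRAF was 4.42-fold higher in CCNB1-negative cells (log2 difference 2.14 ± 0.20, limma adjusted p = 4.1e-07), which placed it at percentile 90.6 of all genes tested, and 2.75-fold higher in CCNB1-positive cells (1.46 ± 0.20, adjusted p = 2.84e-05), at percentile 84.5.

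ARAF (ENSG00000078061, chromosome X, 47561100 to 47571920, plus strand) encodes a RAF kinase with weaker activity towards MEK. Its log2 value was 10.07 and 9.90 in untreated CCNB1-negative, 10.24 and 10.27 in untreated CCNB1-positive, 10.46 and 10.30 in treated CCNB1-negative and 10.35 and 10.37 in treated CCNB1-positive libraries. The treated libraries were the higher ones without overlap, but by a narrow margin. The log2 difference was 0.40 ± 0.14 (1.32-fold; limma adjusted p = 0.021) in CCNB1-negative and 0.10 ± 0.14 (adjusted p = 0.532; 95% interval -0.20 to 0.41) in CCNB1-positive cells. The ARAF call was lost without untreated CCNB1-negative replicate 2 (0.32, limma adjusted p = 0.149), without treated CCNB1-negative replicate 1 (0.32, adjusted p = 0.0779) and in a fit of only the groups compared (adjusted p = 0.0682).

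The MEK genes, which encode the kinases that selumetinib inhibits, were not called in either fraction on the deposited scale, although MAP2K1 was called lower in both after the adjustment for gene span described below. MAP2K1 (ENSG00000169032, chromosome 15, 66386817 to 66492312, plus strand) had log2 values of 11.47 and 11.52 in untreated CCNB1-negative, 11.24 and 11.33 in untreated CCNB1-positive, 11.13 and 11.44 in treated CCNB1-negative and 11.23 and 10.99 in treated CCNB1-positive libraries. MAP2K2 (ENSG00000126934, chromosome 19, 4090321 to 4124129, minus strand) had 11.28 and 11.16, 11.32 and 11.32, 11.14 and 10.99, and 11.18 and 11.12 in the same order of groups. Treated and untreated libraries overlapped for both genes. The log2 difference of MAP2K1 was -0.20 (95% interval -0.53 to 0.13) for CCNB1-negative and -0.17 (-0.50 to 0.16) for CCNB1-positive cells. For MAP2K2 it was -0.15 (-0.45 to 0.14) and -0.17 (-0.46 to 0.13). On the deposited scale these intervals leave room for a fall to 0.69-fold at most.

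MAPK3 (ENSG00000102882, chromosome 16, 30114105 to 30123506, minus strand) encodes ERK1, the kinase at the end of the cascade. Its log2 value was 8.52 and 8.36 in untreated CCNB1-negative, 8.35 and 8.43 in untreated CCNB1-positive, 9.50 and 8.80 in treated CCNB1-negative and 9.55 and 9.41 in treated CCNB1-positive libraries. No treated library fell within the untreated range, although the treated CCNB1-negative replicates had an SD of 0.50 (n = 2). MAPK3 was 1.63-fold higher in CCNB1-negative cells (log2 difference 0.71 ± 0.21, limma adjusted p = 0.0076) and 2.13-fold higher in CCNB1-positive cells (1.09 ± 0.21, adjusted p = 0.000485). Without treated CCNB1-negative replicate 1 the difference in CCNB1-negative cells was 0.35 (limma adjusted p = 0.105), and the call was lost.

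**Figure D2:**
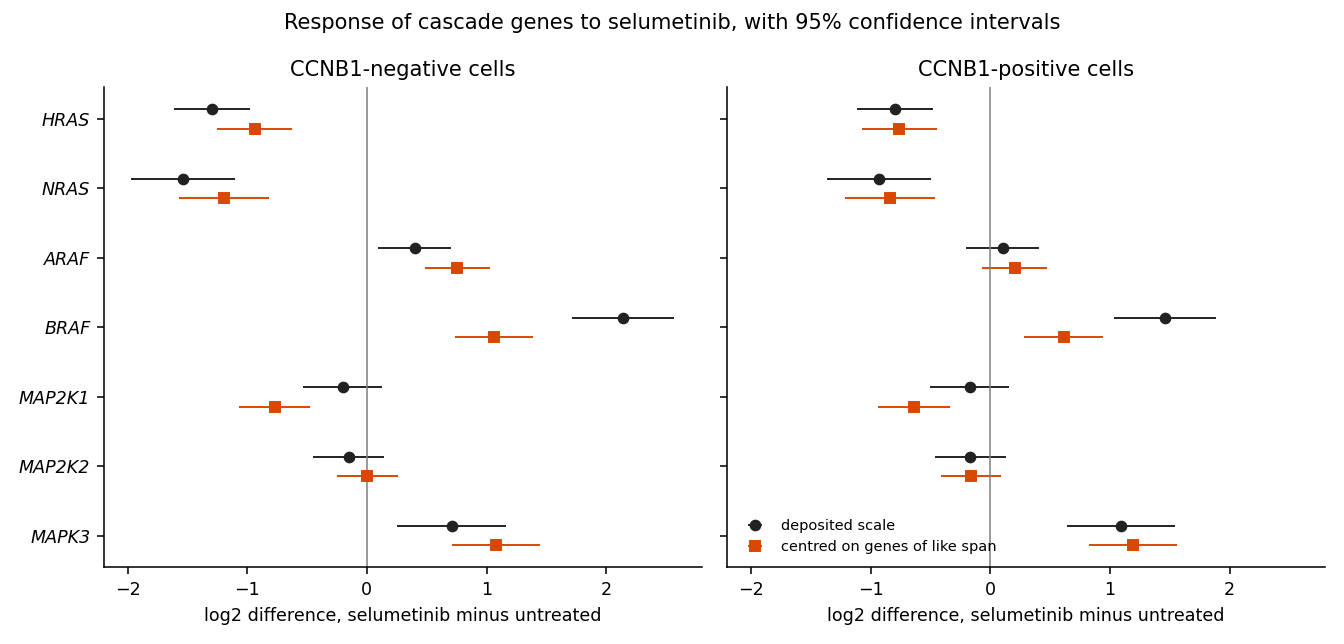
Log2 difference between treated and untreated cells (horizontal axis) with its 95% confidence interval for each cascade gene in both fractions, on the deposited scale (circles) and after each library was centred on genes of like genomic span (squares). BRAF moves from 2.14 to 1.06 and MAP2K1 from -0.20 to -0.77 in CCNB1-negative cells when gene span is taken into account, while HRAS, NRAS and MAPK3 keep their side of 0.

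The response followed the genomic span of the gene over all genes tested, and BRAF is a long gene. In CCNB1-negative cells the median log2 difference was -0.07 for the 845 genes under 3 kb, -0.49 for the 2152 genes of 3 to 10 kb, -0.35 for the 3836 genes of 10 to 30 kb, 0.05 for the 4568 genes of 30 to 100 kb, 0.75 for the 1684 genes of 100 to 200 kb and 1.48 for the 1134 genes over 200 kb. In CCNB1-positive cells the same medians were 0.31, -0.15, -0.13, 0.13, 0.58 and 1.16. Long genes were thus higher under the drug in both fractions. BRAF spans 205.6 kb, MAP2K1 105.5 kb, MAP2K2 33.8 kb, NRAS 12.3 kb, ARAF 10.8 kb, MAPK3 9.4 kb and HRAS 5.0 kb. Among genes over 200 kb BRAF was at percentile 73.0 and 63.1 in the CCNB1-negative and CCNB1-positive fraction, closer to the middle than among all genes. MAP2K1 was at percentiles 20.2 and 20.7 among genes of 100 to 200 kb, of which 61.5% and 56.6% were called higher. NRAS was at 15.2 and 15.9 and HRAS at 23.4 and 22.8 of their classes, and MAPK3 at 78.2 and 81.9.

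When the trend on span was taken off each library, a step chosen after the data were seen, BRAF was 2.09-fold higher in CCNB1-negative cells (log2 difference 1.06, limma adjusted p = 3.58e-05) and 1.53-fold higher in CCNB1-positive cells (0.61, adjusted p = 0.00334), so that it stayed called with a smaller difference. MAP2K1 became a call, with -0.77 (limma adjusted p = 0.000238) and -0.64 (adjusted p = 0.00132). ARAF rose to 0.76 (limma adjusted p = 0.000123) in the negative fraction, and MAPK3 to 1.08 and 1.19. HRAS was at -0.94 and -0.76, and NRAS at -1.19 and -0.84, all called. Whether reads in introns entered the deposited values is not stated in the sources used here, and the part of the span trend in these differences was not tested further.

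**Figure D3:**
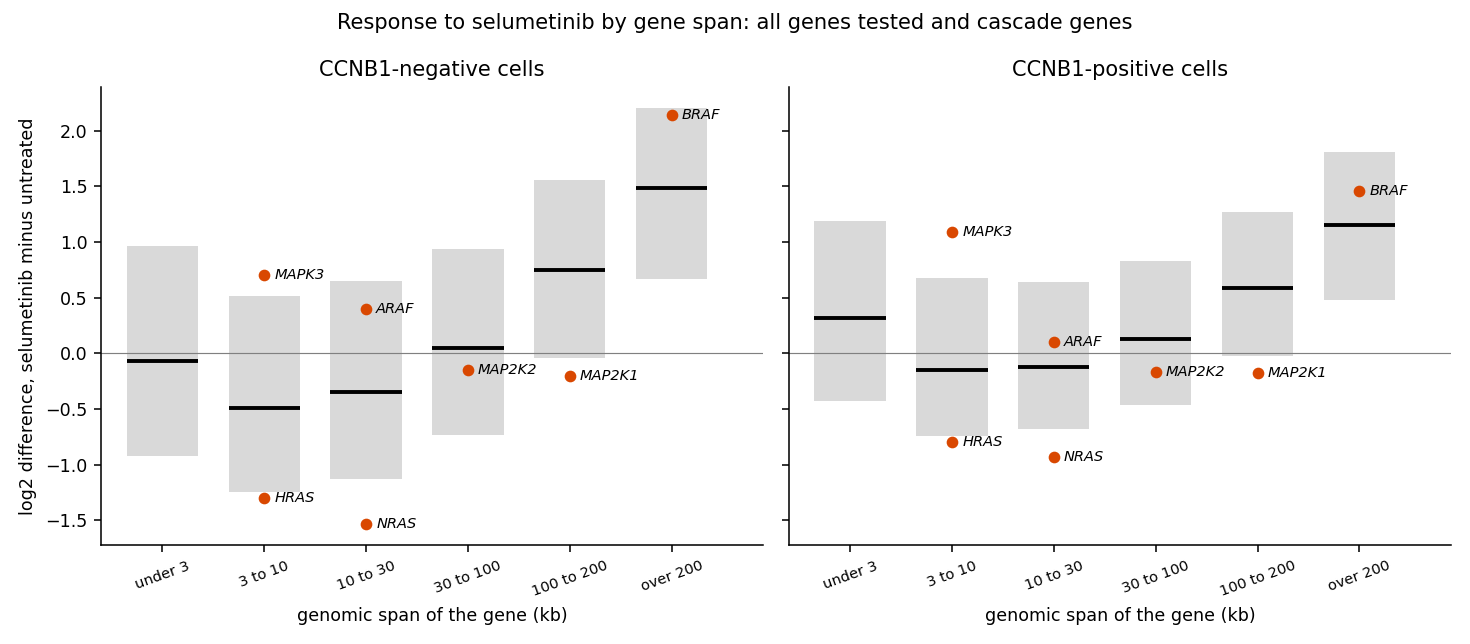
Log2 difference between treated and untreated cells (vertical axis) by genomic span of the gene in kb (horizontal axis), with the median (line) and quartiles (grey bars) over all genes tested and the cascade genes as points. The median climbs from -0.49 at 3 to 10 kb to 1.48 over 200 kb in CCNB1-negative cells, and BRAF lies within the quartiles of its class while MAP2K1 lies below them.

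Within untreated cells, CCNB1-positive and CCNB1-negative fractions were close for all cascade genes. By limma, 0 of 7 passed the adjusted threshold and 0 had an unadjusted p under 0.05, and by limma-voom 0 passed the adjusted and 1 the unadjusted threshold, where limma called 2.87% of all genes tested, 1.36% higher and 1.51% lower in CCNB1-positive cells. The log2 differences, positive minus negative, ran from -0.21 ± 0.15 for MAP2K1 to 0.27 ± 0.14 for ARAF, with 0.15 for HRAS and NRAS and 0.00 for BRAF. The interval for BRAF, -0.42 to 0.43, allows a difference of 1.35-fold in either direction.

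Within treated cells, the RAS genes were higher and BRAF was lower in the CCNB1-positive fraction. By limma 3 of 7 genes passed, 2 higher and 1 lower, against 21.6% of all genes tested, 13.8% higher and 7.87% lower. For all genes that split depended on the scaling, with 1958 higher and 1119 lower as deposited and 2008 and 2182 after quantile normalization. HRAS was 1.56-fold higher (log2 difference 0.64 ± 0.15, limma adjusted p = 0.00779), NRAS 1.68-fold higher (0.75 ± 0.20, adjusted p = 0.0184) and BRAF 1.60-fold lower (-0.68 ± 0.20, adjusted p = 0.0267). For each of these genes the treated CCNB1-positive libraries lay between the treated CCNB1-negative and the untreated ones. MAPK3 was at 0.33 ± 0.21 (limma adjusted p = 0.275), ARAF at -0.02, MAP2K1 at -0.18 and MAP2K2 at 0.08. These calls rest on few libraries. Over all genes tested, the number called moved in the same direction in each fit below that leaves out a library. Leaving out treated CCNB1-negative replicate 2, treated CCNB1-positive replicate 1 or treated CCNB1-positive replicate 2 left 1 call each. Without treated CCNB1-negative replicate 1 there were 4, since MAPK3 then passed as well (0.68, limma adjusted p = 0.0187), and without treated CCNB1-negative replicate 2 MAPK3 was at -0.03. Centring on genes of like span left 1, NRAS, with HRAS at 0.41 (limma adjusted p = 0.0681) and BRAF at -0.36 (adjusted p = 0.113). The median over genes above 200 kb was itself -0.45 in this comparison.

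The test of whether the response differed between the fractions (CCNB1-positive response minus CCNB1-negative response) called 0 of 7 genes by limma and 0 by limma-voom, with 2 and 1 at an unadjusted p under 0.05, against 5.33% of all genes tested. By direction, 4.99% of all genes had a called difference above 0 and 0.345% below 0, and the median over all genes was 0.11. HRAS and NRAS fell less in CCNB1-positive cells by 0.50 ± 0.21 (limma adjusted p = 0.201) and 0.60 ± 0.29 (adjusted p = 0.257), and BRAF rose less, with -0.69 ± 0.28 (adjusted p = 0.191). These differences did not pass this test, which treats all libraries as independent. With same-numbered fractions of a treatment fitted as pairs, which the labels do not state, the same differences passed for HRAS (limma adjusted p = 0.0177), NRAS (0.00925) and BRAF (0.00412). That fit called 3850 of the 14219 genes tested, against 758 without pairs, so more calls came with it over all genes too. Whether the response was larger in CCNB1-negative cells thus rests on whether those fractions came from 1 culture. Without treated CCNB1-negative replicate 1 the BRAF difference was -0.96 and passed (limma adjusted p = 0.0379). MAPK3 had 0.38 ± 0.30, with an interval from -0.26 to 1.02.

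Of the paralog pairs at each step, only the RAF pair had ratios that did not overlap between treated and untreated libraries. The ratio of BRAF to ARAF, in reads per length of the canonical transcript, was 0.345 and 0.278 in untreated CCNB1-negative, 0.268 and 0.247 in untreated CCNB1-positive, 0.812 and 1.33 in treated CCNB1-negative and 0.609 and 0.710 in treated CCNB1-positive libraries. Every treated library had a higher ratio than every untreated one. These ratios are not centred on gene span, and BRAF is the longer gene. In CCNB1-negative cells BRAF and ARAF responded by 2.14 and 0.40 as deposited and by 1.06 and 0.76 after that centring. In CCNB1-positive cells the values were 1.46 and 0.10, and 0.61 and 0.205. How often ratios of other gene pairs part in this way was not tested. The ratio of HRAS to NRAS ran from 11.7 to 15.4 in untreated and from 11.9 to 18.7 in treated libraries, and that of MAP2K1 to MAP2K2 from 0.642 to 0.867 and from 0.618 to 0.927, both with overlap. The mean ratio of HRAS to NRAS was 13.6 ± 2.66 in untreated and 16.1 ± 3.65 in treated CCNB1-negative cells (SD, n = 2). In CCNB1-positive cells it was 13.5 ± 1.24 and 15.1 ± 4.45. Whether HRAS and NRAS fell by different amounts was not tested. The size of each ratio depends on the transcript length chosen, the change between libraries does not.

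**Figure D4:**
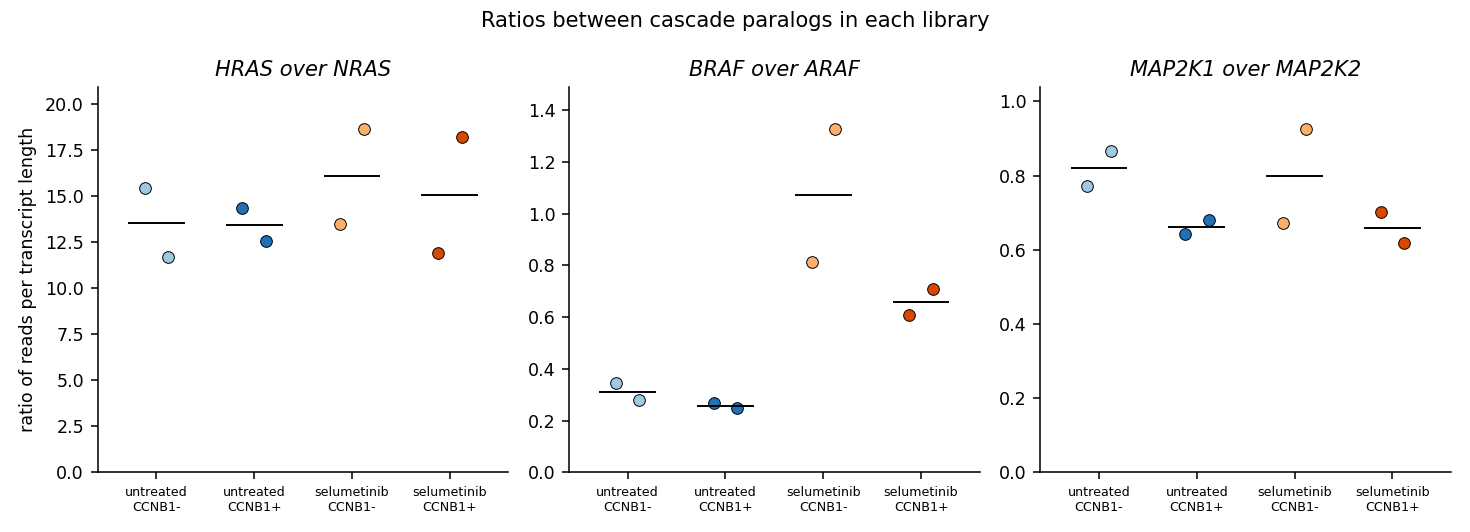
Ratio of reads per length of the canonical transcript (vertical axis, from 0) between the paralogs of each step in each library, by group along the horizontal axis, with lines at the group means. BRAF over ARAF runs from 0.247 to 0.345 in untreated and from 0.609 to 1.33 in treated libraries, whereas the other ratios overlap. The ratios are not centred on gene span.

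Genes around the cascade were taken from 8 lists set by known role, 86 genes of which 80 passed the filter. RASGRP1, RASGRP3, RASA4, MAPK4, MRAS and RERG did not. Under selumetinib 28 were higher and 33 lower in CCNB1-negative cells, together 76.2% of the 80 against 74.1% of all genes tested. In CCNB1-positive cells 26 were higher and 27 lower, together 66.2% against 65.3%. The lists as a whole were thus called about as often as all genes, and their medians were -0.03 in both fractions. Of all genes tested, 38.2% were called higher and 35.8% lower in CCNB1-negative cells, and 38.0% and 27.3% in CCNB1-positive cells. The counts of single lists below on the deposited scale stand beside these shares. Centring on span gave 22 higher and 38 lower list genes, and 19 higher and 34 lower. Over all 14219 genes tested it gave 4906 higher and 5443 lower, and 4380 and 4874, beside which the centred list counts below stand. The balance of directions thus depends on that step. It also depends on the scaling: in CCNB1-positive cells 33 list genes were higher and 24 lower with nuclear reads without MALAT1 as the scale, and 22 and 29 after quantile normalization. Genes named below beyond the largest rise and fall of each list were named after their values were seen.

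ERK output genes, transcripts that ERK activity is known to induce, were the list with the most uniform response. In CCNB1-negative cells 12 of 14 fell and 2 rose, and in CCNB1-positive cells 11 fell and 1 rose, with median log2 differences of -1.48 and -1.29. ETV4, an ETS factor, fell most: its log2 values were 10.73 to 10.86 in untreated libraries, 7.85 and 7.43 in treated CCNB1-negative and 7.82 and 9.19 in treated CCNB1-positive libraries, a difference of -3.10 ± 0.31 (limma adjusted p = 8.1e-07) and -2.34 ± 0.31 (adjusted p = 2.2e-05). The treated CCNB1-positive replicates of ETV4 were far apart. EGR1, an immediate early transcription factor, was the exception in both fractions, with 1.17 ± 0.23 (limma adjusted p = 0.00032) and 1.58 ± 0.23 (adjusted p = 4e-05), and SPRED2, an inhibitor of the cascade, rose in CCNB1-negative cells (0.72 ± 0.20, limma adjusted p = 0.0058) but was at 0.04 (adjusted p = 0.86) after centring on span.

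Exchange factors and adaptors, which load RAS with GTP below receptors, were all called but split: SOS1, SOS2, GAB1 and GAB2 rose and SHC1, PTPN11 and GRB2 fell in both fractions. GAB2, a docking protein, was at 6.95 to 7.48 in untreated and 9.66 to 10.35 in treated libraries, with log2 differences of 3.02 ± 0.21 and 2.37 ± 0.21 (limma adjusted p = 3.3e-08 and 8.9e-07). SOS2, an exchange factor, had 2.99 ± 0.19 and 2.59 ± 0.19 (limma adjusted p = 1.4e-08 and 2.3e-07). PTPN11, the phosphatase SHP2, had -1.04 ± 0.16 and -1.14 ± 0.16 (limma adjusted p = 5.2e-05 and 4.2e-05). The 4 genes that rose span 114.4 to 203.1 kb and the 3 that fell 12.1 to 91.6 kb, and after centring on span the counts were again 4 higher and 3 lower in each fraction.

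Of the RAS GTPase-activating proteins, which switch RAS off, NF1, RASA2 and RASAL2 rose, RASA3 fell and the other 4 tested did not pass, in each fraction. NF1 rose by 1.48 ± 0.19 in CCNB1-negative cells (limma adjusted p = 7.1e-06), but it spans 287.2 kb and was at 0.15 (limma adjusted p = 0.333) after centring on span. That centring turned the list, to 1 higher (RASA2) and 4 lower (RASA1, RASA3, RASAL2 and DAB2IP) in each fraction. RASAL2, of 390.0 kb, went from 1.02 and 0.81 to -0.51 and -0.40 in the negative and the positive fraction (limma adjusted p = 0.00251 and 0.014 after centring), so its direction depends on that step. RASA3 had -0.60 ± 0.17 and -0.61 ± 0.17 (limma adjusted p = 0.0045 and 0.0052). Both calls of RASA3 were narrow: without untreated CCNB1-negative replicate 1 the adjusted p by limma was 0.0562 in CCNB1-negative cells, and without treated CCNB1-positive replicate 1 it was 0.0527 in CCNB1-positive cells.

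Among the 8 genes that process or turn over RAS proteins, PDE6D and LZTR1 rose in both fractions, ICMT and ZDHHC9 fell in both, and ABHD17A fell in CCNB1-negative cells, the last with an adjusted p of 0.0502 by limma after centring on span. ICMT, the methyltransferase that completes the lipid-modified end of RAS, was at 11.29 to 11.64 in untreated, 9.20 and 8.88 in treated CCNB1-negative and 10.15 and 9.98 in treated CCNB1-positive libraries. It fell by 2.51 ± 0.16 on the log2 scale in the negative fraction (limma adjusted p = 1.4e-08) and by 1.31 ± 0.16 in the positive fraction (adjusted p = 1e-05). PDE6D, a chaperone for prenylated RAS, rose by 1.33 ± 0.16 and 1.22 ± 0.16 (limma adjusted p = 3.9e-06 and 1.8e-05).

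Of the 12 scaffolds and modulators of RAF, MEK and ERK, 4 rose and 6 fell in CCNB1-negative cells and 3 rose and 4 fell in CCNB1-positive cells. After centring on span 2 rose and 6 fell, and 1 rose and 4 fell. PEA15, which holds ERK in the cytoplasm, was at 10.09 to 10.27 in untreated, 8.22 and 7.54 in treated CCNB1-negative and 9.61 and 9.22 in treated CCNB1-positive libraries, with differences of -2.30 ± 0.21 (limma adjusted p = 3.7e-07) and -0.73 ± 0.21 (adjusted p = 0.0078). The 14-3-3 gene YWHAE fell by 1.21 ± 0.16 and 0.99 ± 0.16 (limma adjusted p = 9.3e-06 and 0.0001). KSR2, a scaffold gene of 516.0 kb, rose by 2.43 ± 0.23 and 1.44 ± 0.23 (limma adjusted p = 5.9e-07 and 0.00012), and its difference in CCNB1-positive cells was 0.11 (limma adjusted p = 0.644) after centring on span and 0.60 (adjusted p = 0.0503) after quantile normalization.

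Among the kinases that ERK activates, RPS6KA2, RPS6KA3, RPS6KA5 and MKNK1 rose and RPS6KA1 and RPS6KA4 fell in both fractions. RPS6KA4, a kinase that acts on chromatin and transcription factors, fell by 2.01 ± 0.15 and 1.70 ± 0.15 (limma adjusted p = 6.4e-08 and 8.9e-07). RPS6KA2, of 497.1 kb, rose by 1.92 ± 0.25 in CCNB1-negative cells (limma adjusted p = 8.4e-06) and was at 0.25 (adjusted p = 0.383) after centring on span. RPS6KA5, the paralog of RPS6KA4, rose by 1.42 ± 0.18 and 1.70 ± 0.18 (limma adjusted p = 9.3e-06 and 4.3e-06), so these paralogs moved in opposite directions. After centring on span 2 kinases rose and 2 fell in each fraction, and RPS6KA5 was at 0.31 (limma adjusted p = 0.091) in CCNB1-negative cells.

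The other MAP kinases and their activators held the gene with the widest change of all lists. MAP2K6, a p38 activator, was at 5.16 and 5.46 in untreated CCNB1-negative, 3.81 and 3.13 in untreated CCNB1-positive, 9.94 and 10.21 in treated CCNB1-negative and 8.54 and 8.47 in treated CCNB1-positive libraries. It rose by 4.76 ± 0.28 and 5.04 ± 0.28 (limma adjusted p = 7.9e-09 and 3.8e-08) from as few as 8 reads in 1 untreated library. The mean of its untreated libraries was below the filter value of 4.58, so MAP2K6 passed the filter through its treated libraries, and the size of its rise is uncertain. MAP2K3, another p38 activator, fell by 1.93 ± 0.17 and 1.87 ± 0.17 (limma adjusted p = 1.9e-07 and 8.9e-07). Of 14 tested genes of this list, 7 rose in each fraction, and 3 fell in the negative and 2 in the positive fraction. After centring on span 8 and 7 rose, and 4 fell in each.

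Of the other RAS family GTPases, 5 of 9 were called in CCNB1-negative and 4 of 9 in CCNB1-positive cells, against 74.1% and 65.3% of all genes tested. RRAS2 and RAP1A rose and RALB, RHEB and RAP2A fell in CCNB1-negative cells, and RRAS2 and RIT1 rose and RALB and RHEB fell in CCNB1-positive cells. After centring on span 2 rose and 4 fell, and 1 rose and 3 fell, with RAP1A at -0.32 (limma adjusted p = 0.0535) in CCNB1-negative cells. RHEB, an activator of mTORC1, had -1.08 ± 0.15 and -0.78 ± 0.15 (limma adjusted p = 1.5e-05 and 0.00042), and RALB, a regulator of exocytosis, had -1.12 ± 0.16 and -0.54 ± 0.16 (adjusted p = 1.8e-05 and 0.0077). RRAS2 rose by 0.88 ± 0.17 and 0.51 ± 0.17 (limma adjusted p = 0.00027 and 0.0151). Its call in CCNB1-positive cells was lost without untreated CCNB1-positive replicate 1 (limma adjusted p = 0.146), without treated CCNB1-positive replicate 2 (0.0973), by limma-voom (0.0712) and after centring on span (0.448).

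**Figure D5:**
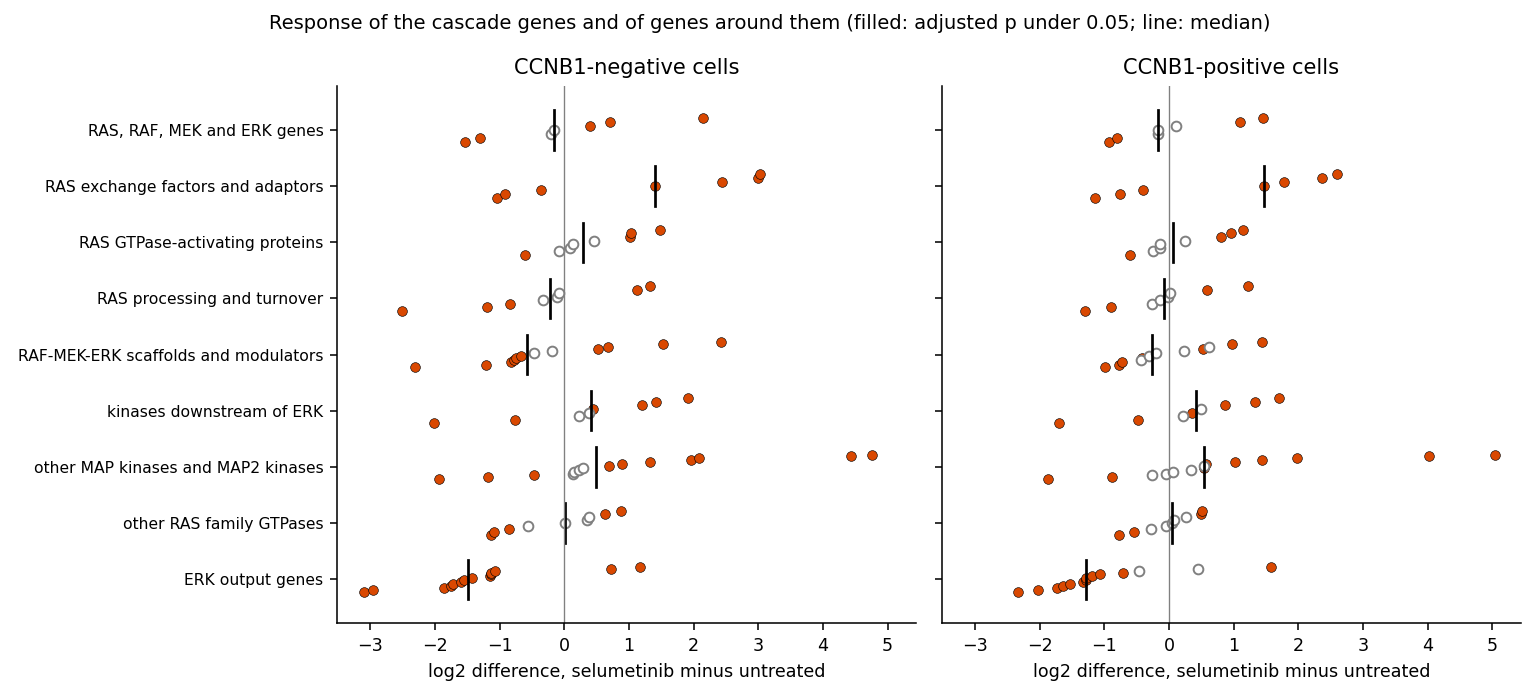
Log2 difference between treated and untreated cells (horizontal axis) of each tested gene of the cascade and of the 8 lists around it (rows), in both fractions, with filled points for an adjusted p under 0.05 and lines at list medians. The ERK output genes sit mostly left of 0, with medians of -1.48 and -1.29, while the other lists spread to both sides.

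Between fractions, 1 of the 80 genes was called in untreated cells, which is 1.25% against 2.87% of all genes. It was MAP2K6 (-1.84 ± 0.28, limma adjusted p = 0.0014, lower in CCNB1-positive cells), whose untreated CCNB1-positive libraries both lay below the filter value. In treated cells 10 were higher and 6 lower in the CCNB1-positive fraction, the former being SHC1, ICMT, PEA15, IQGAP1, RPS6KA4, MAPK13, RALB, RHEB, ETV5 and CCND1 and the latter SOS1, SOS2, KSR2, MAP2K5, MAP2K6 and RAP1B. Together they are 16 of the 80, a share close to the 21.6% of all genes. The split turned to 8 higher and 11 lower by limma-voom and to 9 and 13 after quantile normalization. The number called rose without treated CCNB1-negative replicate 1 and fell without any other treated library, and so did the number over all genes tested. With same-numbered fractions fitted as pairs 37 of the 80 were called, where that fit called 6671 of the 14219 genes tested, against 3077 without pairs. The difference between the responses was called for ICMT and PEA15, 2.5% against 5.33% of all genes. More list genes were called without treated CCNB1-negative replicate 1, as over all genes tested. The same held without treated CCNB1-positive replicate 1, where fewer of all genes were called.

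The genes whose values followed each cascade gene most closely over the 8 libraries are given as a description, since these points share depth and the treatment. For HRAS they were PUSL1 (Pearson r = 0.999) and AUP1 (0.998), for NRAS KLHDC3 (0.998) and UQCRC1 (0.996), and for BRAF DIAPH2 (0.999) and SIL1 (0.999). For MAPK3 they were FUCA1 (0.988) and CASP10 (0.985), for ARAF SPSB2 (0.968) and MSRA (0.967), for MAP2K2 STRN4 (0.984) and PCNX3 (0.983), and for MAP2K1 PLEKHA3 (0.946) and NOCT (0.902). The lowest of these values were those of MAP2K1. Among the cascade genes HRAS and NRAS moved together (r = 0.94) and each ran against BRAF (-0.95 and -0.98), while the value for MAP2K1 and MAP2K2 was 0.04.

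Neighbouring and overlapping genes bear on the reads counted. The library kit keeps strand, but how strand was used for this table is not stated, so reads of antisense partners cannot be told apart. BRAF shares 3464 bases with NDUFB2 on the opposite strand, which had 1042 to 3665 reads and fell (-1.07 and -0.47 in the negative and the positive fraction, limma adjusted p = 3.83e-05 and 0.0201) while BRAF rose. MAP2K1 shares 2178 bases with SNAPC5 and 3452 bases with AC116913.1 on the opposite strand, and SNAPC5, with 200 to 1137 reads, fell by 1.77 and 0.94 (limma adjusted p = 4.05e-07 and 0.000222). ARAF shares 20 bases with SYN1, which had at most 17 reads. LRRC56, 239 bases from HRAS on the other strand, rose (1.36 and 0.87, limma adjusted p = 7.64e-05 and 0.00357) where HRAS fell, and GDPD3, 567 bases from MAPK3, rose with it (3.57 and 3.06, limma adjusted p = 5.29e-06 and 4.1e-05) from as few as 5 reads.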

How the data were processed

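Poly(A)-selected mRNA-seq of 8 HT29 libraries was analysed. Per the labels, the authors used Trim Galore 0.5.0 for trimming and HISAT2 2.1.0 for mapping to GRCh38. Gene values came from SeqMonk, and the deposited unit is log2 of reads, scaled to library size. Annotation release, strand use and treatment of intronic reads are not given in the sources used here. Whole reads were recovered from all values, without molecular identifiers, so counting errors cover sampling only. Separate cultures per replicate are not stated, so p-values measure the spread between these libraries.

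Genes averaging at least 1 RPM (14219) were tested on the deposited log2 values with limma 3.58.1 (R 4.3.3) with a mean-variance trend, on all 8 libraries with 1 coefficient per group, with Benjamini-Hochberg adjustment over all of them. The authors used DESeq2. Spans and lengths came from GENCODE release 44 (99.3% of identifiers matched). Centring on span used a lowess trend (span 0.3) per library. The fit was tested only on simulated counts with the same dispersion for all genes, few changed genes in 1 group and no span trend. That setting is simpler than these data, so it does not give the error rates here. Named genes are the 7 genes, CCNB1, the largest called rise and fall per list, drug comparison and interaction, the 2 closest genes by correlation, and overlapping or adjacent genes, of which 1 is not reported here. Members, lists and tests were chosen with earlier results of these data known. Alternatives were other thresholds, filters, scalings, pseudocounts (0.1 and 1 RPM), limma-voom, replicate blocks, fits of only the groups compared and leaving out each library.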

Additional observations from a re-analysis of the deposited data

Results flagged for a closer look

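By the limma test of the difference itself, the drug response was not the same in the fractions for ICMT, PEA15 and the sorting marker CCNB1. The same test called 5.33% of all genes tested, 4.99% with a difference above 0, as for these genes, and 0.345% below 0. ICMT fell less in CCNB1-positive than in CCNB1-negative cells by 1.21 ± 0.22 on the log2 scale (limma adjusted p = 0.0041), and leaving out each library in turn gave 1.04 to 1.37. For PEA15 the difference was 1.57 ± 0.30 (limma adjusted p = 0.0051), with 1.23 to 1.91 over the same 8 settings. CCNB1, on whose protein the cells were sorted, had 2.99 ± 0.30 (limma adjusted p = 1.8e-05), a value that is not independent of the sort. In each of these genes both CCNB1-positive treated libraries lay above both CCNB1-negative treated ones.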

How the results depend on the processing

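HRAS and NRAS stayed lower and BRAF higher under selumetinib, past the threshold in both fractions, under each alternative run, and so did MAPK3 in CCNB1-positive cells. Leaving out each library in turn gave 3 to 5 cascade genes called in CCNB1-negative cells (3 without treated CCNB1-negative replicate 1), 1 to 4 between fractions of treated cells and 0 to 1 for the difference of responses. Between fractions of treated cells 1 was called at an adjusted p threshold of 0.01 and 1 after centring on span, with 7 list genes called at 0.01. In untreated cells a mean of at least 10 RPM left out MAP2K6, and limma then called 0 list genes. The labels do not say what a replicate number shares. Over genes, deviations of same-numbered libraries correlated at 0.35 and 0.43 between the fractions of a treatment and at -0.09 to 0.08 across treatments, so the numbers may pair fractions and showed no pairing of treatments. The replicate block by number changed no call of a cascade gene. The replicate block by pair of fractions, which assumes that same-numbered fractions came from 1 culture, called 3 cascade genes for the difference of responses (HRAS, NRAS and BRAF), and among list genes 14 between fractions of untreated cells, 37 between fractions of treated cells and 18 for the difference of responses. Over all 14219 genes tested it called 1923, 6671 and 3850 in these 3 comparisons, against 408, 3077 and 758 without pairs.

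Among the cascade genes, changes of sign occurred only for differences that were not called. Between untreated fractions, BRAF was at -0.001 with nuclear reads without MALAT1 as the scale, -0.001 with a pseudocount of 0.1 RPM and -0.002 with 1 RPM, and MAPK3 at 0.030 after quantile normalization. The response of ARAF in CCNB1-positive cells was -0.033 by limma-voom. Quantile normalization gave a response of 0.017 for MAP2K1 and 0.047 for MAP2K2 in CCNB1-negative cells and of 0.010 for MAP2K2 in CCNB1-positive cells. MAP2K2 in CCNB1-negative cells was also at 0.023 with nuclear reads as the scale and 0.002 after centring on span, and at -0.030 between treated fractions after that centring. For the difference of responses MAP2K1 was at -0.024 after quantile normalization, -0.004 and -0.003 with pseudocounts of 0.1 and 1 RPM and -0.055 by limma-voom. Leaving out each library gave -0.055 to 0.352 for NRAS, -0.234 to 0.242 for BRAF and -0.134 to 0.027 for MAPK3 between untreated fractions, -0.099 to 0.057 for ARAF and -0.025 to 0.682 for MAPK3 between treated fractions, and -0.123 to 0.186 for MAP2K1 and -0.090 to 0.064 for MAP2K2 in the difference of responses. The cause of these changes was not tested. The median response of all genes tested, 0.05 and 0.17 as deposited, was 0.23 and 0.31 with nuclear reads as the scale and -0.08 and -0.07 after quantile normalization, which also turned 5400 higher and 3888 lower calls in CCNB1-positive cells into 3978 and 4392. Over all lists together, alternatives other than those above kept the number called within 1.5 times, except that leaving out each library gave 1 to 2 between untreated fractions, 5 to 25 between treated fractions and 2 to 9 for the difference of responses, and counts of single lists moved further after centring on span. With 2 libraries a group, differences smaller than the intervals given were not detectable.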
